A study of Homo sapiens with 2 samples.

Results

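The genes of the TPT1 and EIF4B loci, the translation elongation factors EEF1A1, EEF2, EEF1B2 and EEF1G, the helicase gene EIF4A1 and the poly(A)-binding protein gene PABPC1 were followed in extracellular vesicles of LAD2. LAD2 is an established human mast cell line. The 10 genes were selected on their deposited log2 values in these same libraries, so their levels are a description and support nothing by themselves. The set includes ENSG00000273149 and TNS2-AS1, antisense genes opposite TPT1 and EIF4B. Of the 10 genes, 9 had a value among the 14467 genes of the tables, and EEF1G had no row. The study has 1 group of 2 libraries, replicates 1 and 2, both from vesicles collected after 4 days from cells kept in SP34 medium with stem cell factor at 5% CO2 and 37 °C. There was no second condition and no library of the cells themselves, so the vesicle values could not be set against cellular RNA, and 2 libraries of 1 group give no test. Whether the replicates came from separate cultures is not stated, so the SD between them may be technical.

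Protein synthesis has 3 main phases. In initiation, the eIF4 factors bind the cap and unwind the leader of a messenger RNA. In elongation, eEF1A brings aminoacyl-tRNA to the ribosome and eEF2 moves the ribosome on by a codon. Many messages for these factors begin with a terminal oligopyrimidine (TOP) tract, a C at the first base followed by a run of C and T, and signalling through mTORC1 and LARP1 controls their translation. TPT1 encodes translationally controlled tumour protein, whose message has such a tract. Outside cells the protein is known as histamine-releasing factor and acts on mast cells and basophils.

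TPT1 and ENSG00000273149 are annotated over the same bases on opposite strands, and so in part are EIF4B and TNS2-AS1. The longest coding stretch shared within each pair is shown because a read from these bases can be given to a gene only by its strand. The sequences were read from GENCODE 29 transcripts on GRCh38. Capitals mark bases that code for TPT1 or EIF4B, or that are antisense to those coding bases. Lower case marks bases of the antisense exon that follow that stretch. The TPT1 stretch is chr13:45340039-45340184 on the minus strand (146 bases), and the ENSG00000273149 stretch is chr13:45340039-45340224 on the plus strand (186 bases). The EIF4B stretch is chr12:53018798-53018959 on the plus strand (162 bases), and the TNS2-AS1 stretch is chr12:53018779-53018959 on the minus strand (181 bases).
TPT1: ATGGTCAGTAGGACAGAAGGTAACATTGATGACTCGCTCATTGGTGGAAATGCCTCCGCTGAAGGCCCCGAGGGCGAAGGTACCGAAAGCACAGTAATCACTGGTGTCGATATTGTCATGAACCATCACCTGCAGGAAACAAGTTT
ENSG00000273149: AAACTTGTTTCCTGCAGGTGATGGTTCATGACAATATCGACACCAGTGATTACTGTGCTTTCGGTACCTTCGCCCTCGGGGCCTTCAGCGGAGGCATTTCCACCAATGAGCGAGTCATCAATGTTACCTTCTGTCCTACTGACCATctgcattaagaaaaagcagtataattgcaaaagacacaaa
EIF4B: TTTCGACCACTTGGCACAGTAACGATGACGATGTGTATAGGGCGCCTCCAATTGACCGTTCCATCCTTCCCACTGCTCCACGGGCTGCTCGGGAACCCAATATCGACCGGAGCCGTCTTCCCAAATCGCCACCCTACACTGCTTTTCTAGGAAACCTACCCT
TNS2-AS1: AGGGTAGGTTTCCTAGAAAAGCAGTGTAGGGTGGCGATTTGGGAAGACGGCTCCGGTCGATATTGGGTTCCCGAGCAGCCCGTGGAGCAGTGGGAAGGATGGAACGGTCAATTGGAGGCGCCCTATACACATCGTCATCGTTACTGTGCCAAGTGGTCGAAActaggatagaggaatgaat

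The deposited values were on a log2 scale of unstated transform, and on it the libraries differed less at low levels than at high ones. Their median was 3.09 in replicate 1 and 3.04 in replicate 2. A gene was called detected where both libraries reached 3.32 on the log2 scale, a linear value of 10. Of the 10 members 7 were detected, beside 45.5% of all genes with a value, and since the members were picked with these levels known nothing is read from that count. No read totals were used, since the labels and files state none. No strand setting is stated either, so which strand's RNA a value measures is uncertain for every gene. Many low values fell on shared steps. Among genes higher in replicate 1, the summed linear value of both libraries was 1.70 for 753 genes and 3.38, 5.06 and 6.74 for 536, 405 and 369 others. Among genes higher in replicate 2 it was 2.35 for 465 genes and 4.68 and 6.99 for 233 and 186. The very lowest values, down to a mean of -1.06, were left out of this reading. They lie below the first steps, so these steps are not the smallest unit and the step counts given here are lower bounds. How many reads make 1 step is not known. Counted in these steps, the summed linear value of EEF1B2 was 4.0 to 5.5 steps, of EIF4A1 4.5 to 6.2, of PABPC1 10.6 to 14.6 and of TPT1 16.8 to 23.2. That of ENSG00000273149 was 46310 to 64070 steps. How the steps divide between the libraries is not known. Near-equal values of a low gene therefore need not show that both libraries held its reads. Of 12 genes that define mast cells, 9 had a value and 2 were detected, which is 22.2% of those with a value beside the 45.5% of all genes: GATA2, a lineage transcription factor, at 9.03 ± 0.19 and CTSG, a granule protease, at 5.40 ± 0.06. KIT, the stem cell factor receptor, stood at 2.19 ± 0.01, and FCER1A, FCER1G and MITF had no row. Per kilobase the median of the 9 was 1.73, beside 1.78 for all genes and 0.68 for protein-coding genes.

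TPT1 exceeded 67.7% of genes by its deposited value and 45.7% per kilobase of exon, while the gene on its other strand stood near the top on both scales. The log2 value of TPT1 (ENSG00000133112, chromosome 13, 45333471 to 45341370, minus strand) was 4.27 in replicate 1 and 4.32 in replicate 2. ENSG00000273149 (chromosome 13, 45340039 to 45341183, plus strand), an antisense RNA gene of unknown function, had 15.39 and 16.00. Both libraries thus placed the antisense gene far above TPT1, with no overlap. Levels of different genes were compared per kilobase of annotated exon. On that log2 scale ENSG00000273149 exceeded TPT1 by 14.75 in replicate 1 and 15.31 in replicate 2 (15.03 ± 0.40, SD, n = 2), and it ranked 2 of 13733 genes with an exon model. ENSG00000273149 alone held 2.46% of the summed linear value of replicate 1 and 3.54% of that of replicate 2. TPT1 held 0.00110% and 0.00108%.

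All 588 exonic bases of ENSG00000273149 are also exonic in TPT1, so the antisense gene has no exonic base of its own. They make up 8.09% of the 7269 exonic bases of TPT1, and 164 of them are antisense to TPT1 coding sequence. The last base of ENSG00000273149 is 45341183, which is also the first base of TPT1 in RefSeq, while GENCODE 29 extends TPT1 to 45341370. A different opposite-strand gene, TPT1-AS1, overlaps the annotated start of TPT1 and shares 26 exonic bases with TPT1, none of them coding. TPT1-AS1 had 5.44 in replicate 1 and 5.32 in replicate 2. Per kilobase it stood 0.57 ± 0.11 log2 units above TPT1, a small gap beside that of ENSG00000273149.

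**Figure D1:**
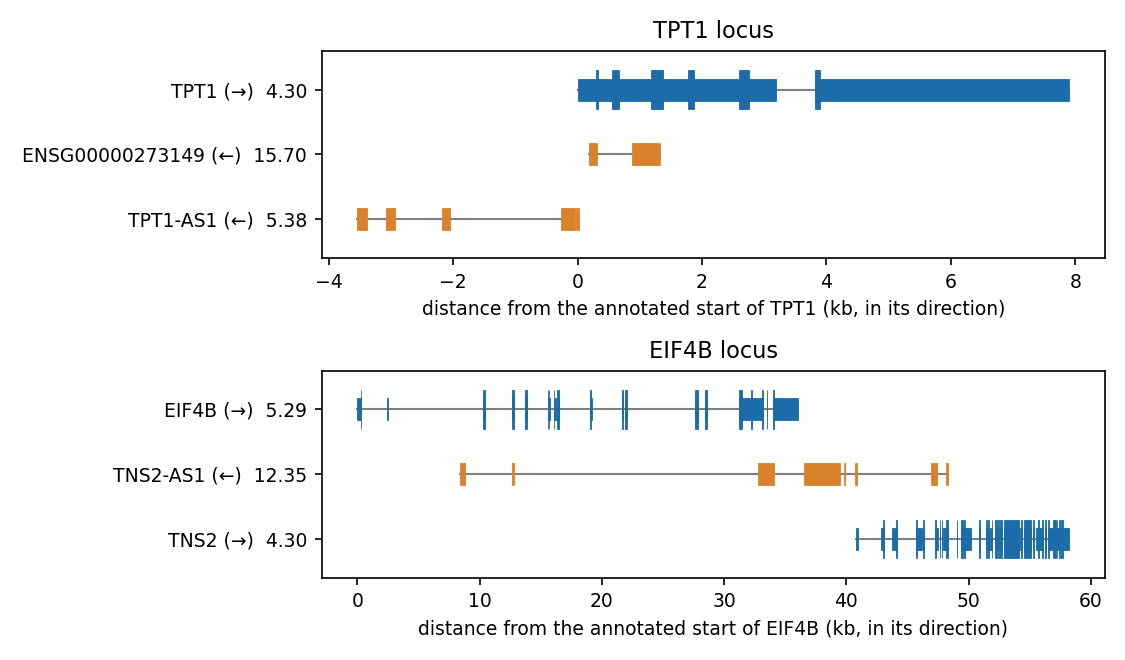
Exons of TPT1 and EIF4B and of the genes that overlap them, drawn by distance in kilobases from the GENCODE 29 start of TPT1 (top) or EIF4B (bottom), in the direction of that gene. Tall boxes are coding, low boxes are non-coding exons of any transcript, blue genes run with the named gene and orange genes against it, TPT1-AS1 is drawn only near TPT1, and the number beside each name is its mean log2 value; the antisense genes at 15.70 and 12.35 lie over exons of TPT1 at 4.30 and EIF4B at 5.29.

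EIF4B encodes an RNA-binding cofactor that stimulates the helicase eIF4A, and it too lay under a far higher antisense gene. EIF4B (ENSG00000063046, chromosome 12, 53006158 to 53042209, plus strand) had 5.38 in replicate 1 and 5.19 in replicate 2. TNS2-AS1 (ENSG00000257337, chromosome 12, 53014596 to 53054438, minus strand) had 12.22 and 12.47. Per kilobase of exon TNS2-AS1 exceeded EIF4B by 6.97 log2 units in replicate 1 and 7.41 in replicate 2 (7.19 ± 0.31, SD, n = 2), less than the gap at TPT1. Unlike ENSG00000273149, TNS2-AS1 has most of its 5622 exonic bases to itself. It shares 733 with EIF4B, 419 of them coding, and 364 with TNS2, a focal adhesion protein gene of the plus strand. TNS2 had 4.32 and 4.28, and TNS2-AS1 stood 8.57 ± 0.20 above it per kilobase. Whether reads were counted by strand, and on which, is not stated. Which strand's RNA a value measures is therefore uncertain for every gene here, with or without an opposite-strand partner. The part of strand counting in these gaps was not tested.

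The elongation factors EEF1A1 and EEF2 were the highest of the protein-coding members. EEF2, the translocase, had 6.32 in replicate 1 and 6.37 in replicate 2 on the log2 scale. EEF1A1, which delivers aminoacyl-tRNA, had 6.27 and 6.36. Per kilobase EEF2 stood 0.59 ± 0.03 above EEF1A1 on the log2 scale, with the same order in both libraries and a gap above the combined spread of 0.186 of genes at these levels. Without division by length the gap was 0.02, below that spread. Nearly all of the gap per kilobase thus rests on the exonic lengths, which are the same for both libraries and whose error the spread does not cover. EEF2 exceeded 77.0% of genes per kilobase and EEF1A1 72.0%. No opposite-strand gene shares exonic bases with EEF2. EEF1A1-AS1 shares 180 exonic bases with EEF1A1, none coding, and begins 2586 bases upstream of the RefSeq start of EEF1A1. EEF1A1-AS1 had no row, in contrast to the antisense genes at TPT1 and EIF4B.

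EEF1B2 and EEF1G encode subunits of the complex that reloads eEF1A with GTP. EEF1B2 had 2.20 in replicate 1 and 2.24 in replicate 2, below the detection threshold. Its neighbour on the other strand, NDUFS1, a complex I subunit gene, shares 19 exonic bases and had 4.46 and 4.49. Per kilobase NDUFS1 stood lower than EEF1B2, with a gap of -0.42 ± 0.01, whereas without division by length it stood 2.26 higher. EEF1G had no row. A readthrough gene of the same strand, ENSG00000255508, covers 2714 of the 2716 exonic bases of EEF1G, and it had 4.60 and 4.62. How reads shared by these genes were assigned is not stated, so no level can be given for EEF1G.

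EIF4A1, the cap-complex helicase, had 2.36 in replicate 1 and 2.41 in replicate 2, and was not detected. It shares 1586 exonic bases with SENP3-EIF4A1 and 2186 with ENSG00000264772, genes of the same strand that had no row, and it contains the small nucleolar RNA genes SNORA48, SNORD10 and SNORA67, also with no row. PABPC1, which binds the poly(A) tail, had 3.66 and 3.60 and was detected. Per kilobase, TPT1, PABPC1 and EEF1B2 followed EIF4B in this order, and EIF4A1 came last. TPT1 and PABPC1 could not be separated: their order changed between the libraries and the mean gap of 0.05 was below the combined spread of 0.0835. PABPC1 stood 0.10 ± 0.07 above EEF1B2, with 0.15 in replicate 1 and 0.06 in replicate 2 beside a combined spread of 0.0515. EIF4B stood 1.23 ± 0.17 above TPT1, and EEF1B2 1.31 ± 0.00 above EIF4A1. The order of the lower 4 depends on the length used. With exons of the basic transcript set EEF1B2 stood at 2.06 per kilobase, above PABPC1 at 1.83 and TPT1 at 1.80, and 0.48 above EIF4A1. Without division by length EEF1B2 was last, with a gap of -0.17 to EIF4A1. The first 5 places were the same on all 3 scales. The 7 protein-coding members with a value together held 0.0137% of the summed linear value in replicate 1 and 0.0132% in replicate 2.

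**Figure D2:**
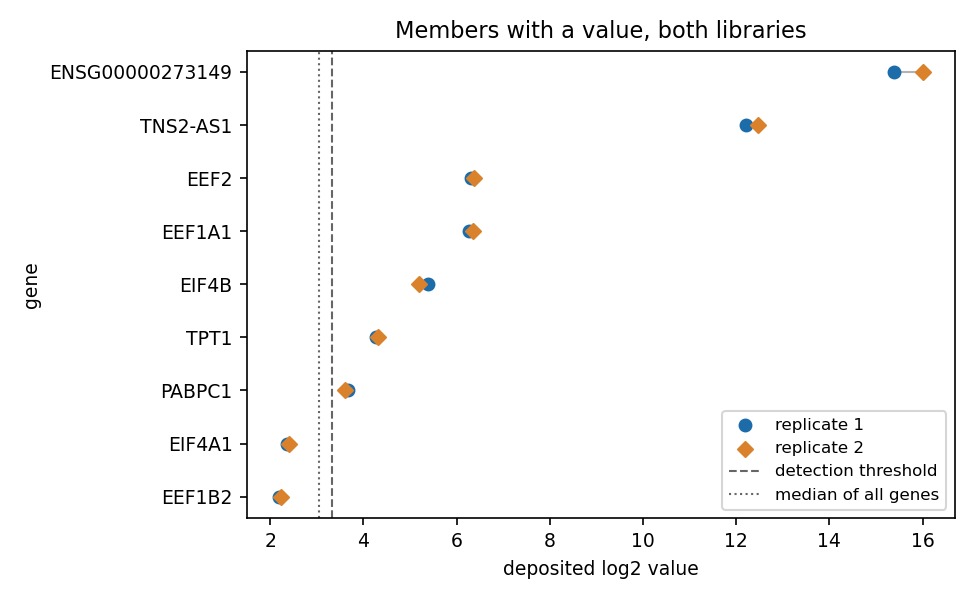
Deposited log2 value (horizontal axis) of each of the 9 members with a value, in replicate 1 (circles) and replicate 2 (diamonds), with the detection threshold (dashed) and the median of all genes (dotted). ENSG00000273149 and TNS2-AS1 stand above 12 in both libraries, EEF1A1 and EEF2 above 6, and EIF4A1 and EEF1B2 below the threshold.

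In the deposited values the libraries differed little at most members. The transform is not stated, and many low genes shared the same pair of values, such as -0.235 and -0.241 for EIF4A3. How far the underlying counts differed is therefore not known. Differences and SDs hold for the deposited values only. Of the 9, 7 were higher in replicate 2, against 35.9% of all genes, and EIF4B and PABPC1 were higher in replicate 1. None reached a 2-fold difference, which 0.0899% of all genes reached. ENSG00000273149 was 1.52-fold higher in replicate 2, and it was the one member past 1.5-fold, as were 0.512% of all genes in either direction, 0.207% with replicate 2 higher, and 6.92% of the 260 genes with a mean above 10. At 15.70 ± 0.43 its SD was above the 0.242 of the 500 genes nearest in level. The log2 difference, replicate 2 minus replicate 1, was -0.19 for EIF4B and 0.25 for TNS2-AS1. The SD of EIF4B, 0.136, was above the 0.0938 of genes at its level, and that of TNS2-AS1, 0.174, was within the 0.242 of genes at its own. In all, 4 of the 9 members had an SD above that of genes of like level, beside 61.7% of all genes. The others of these 4 were EEF1B2 and EIF4A1, whose SDs of 0.0264 and 0.0296 were small.

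**Figure D3:**
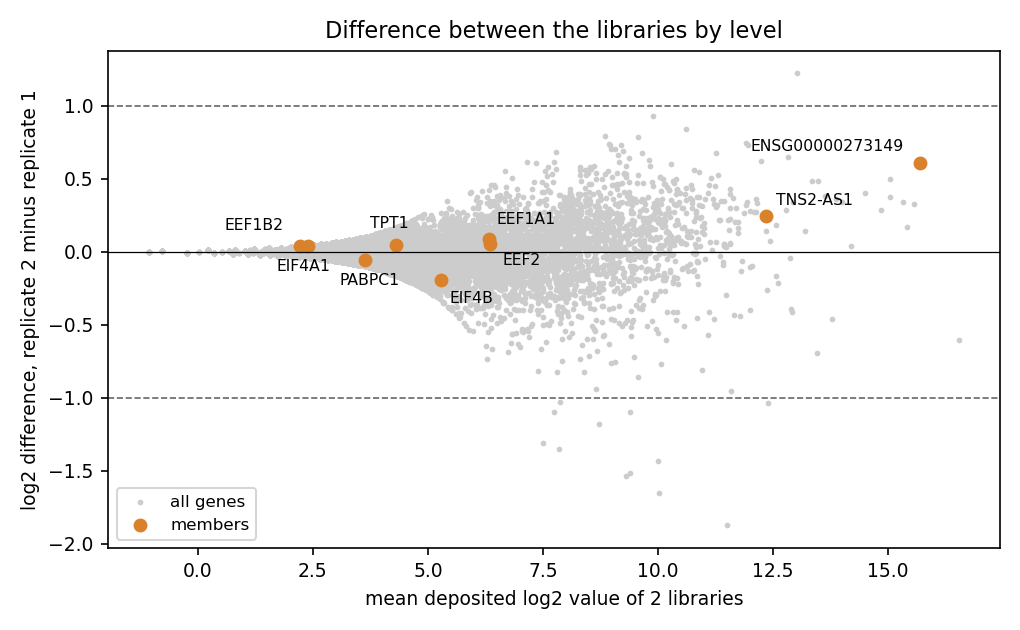
Log2 difference between the libraries, replicate 2 minus replicate 1 (vertical axis), against the mean deposited log2 value (horizontal axis) for all 14467 genes (grey) and the 9 members with a value (orange), with dashed lines at 2-fold. The members lie between -0.19 for EIF4B and 0.61 for ENSG00000273149, inside both lines.

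The rule that chose the members did not use the TOP tract. Messages for such factors are known to carry it often, so the count below is a description and not an independent result. RefSeq start windows (GRCh38.p14) held 8 of the 10 members. Shown are 7 protein-coding members, from 20 bases before to 20 bases from the start, on the strand of the gene. PABPC1, also protein-coding, was left out of this set, so the count below does not cover all protein-coding members. Capitals mark a C at the first transcribed base with its unbroken run of C and T, where the run had at least 5 bases. Only the strand of the gene was searched, and only from the first base. EEF1B2 has a second RefSeq start without such a run.
TPT1: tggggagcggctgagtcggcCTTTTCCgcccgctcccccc
EIF4B: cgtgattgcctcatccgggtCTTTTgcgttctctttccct
EEF1A1: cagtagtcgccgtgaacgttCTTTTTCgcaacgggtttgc
EEF2: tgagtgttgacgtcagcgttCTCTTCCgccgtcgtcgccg
EEF1B2: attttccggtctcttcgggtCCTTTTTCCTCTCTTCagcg
EEF1G: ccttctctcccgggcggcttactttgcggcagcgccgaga
EIF4A1: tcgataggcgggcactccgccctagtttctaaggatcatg
The run was present in 5 of the 7 genes, 16 bases long in EEF1B2, 7 in TPT1, EEF1A1 and EEF2, and 5 in EIF4B. It was present in 4.07% of all 35116 start windows. At the level of genes it was present at any start of 14.7% of 95 translation genes with a window (14 genes) and of 5.14% of all genes. The 5 genes with the run ranged from 2.22 (EEF1B2) to 6.34 (EEF2) in mean log2 value, and EIF4A1, which has no run and a value of 2.38, lay within that range. The first bases of the TPT1 run lie opposite the last bases of ENSG00000273149.

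The wider translation machinery was given by 7 lists of 114 genes. Of these 82 had a value and 39 were detected, which is 34.2% of the genes listed and 47.6% of those with a value, near the 45.5% of all genes. The median of those with a value was 3.26, beside 3.06 for all genes, and 0.74 per kilobase, beside 1.78 for all genes and 0.68 for protein-coding genes. No gene of these lists differed 2-fold between the libraries. The highest and lowest genes of each list are given by deposited value, without division by length. The elongation list had a value for 12 of 20 genes, 8 of them detected, with a median of 3.86. EEF1D, a nucleotide exchange subunit of the eEF1B complex, stood at 6.27 ± 0.02 and EIF5A, which helps ribosomes past proline runs, at 5.05 ± 0.17. The lowest of that list were EEF2K, the kinase that inactivates eEF2, at 2.12 ± 0.02 and DPH1, an enzyme of the diphthamide pathway that modifies eEF2, at 1.23 ± 0.01. EEF1E1 had no row.

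The cap-complex list had 11 of 16 with a value and 6 detected, with a median of 3.49. EIF4ENIF1, a transporter and repressor of eIF4E, led by deposited value at 7.21 ± 0.05, though per kilobase EIF4EBP3 stood higher, 4.81 beside 4.61. By deposited value the next were PDCD4, an inhibitor of eIF4A, at 6.04 ± 0.11, EIF4B and the eIF4E-binding EIF4EBP3 at 4.27 ± 0.04. The helicase gene EIF4A2, the cap-binding EIF4E and EIF4H, another eIF4A cofactor, had no row. EIF4A3, the helicase of the exon junction complex, was at -0.24 ± 0.00 and EIF4E2 at 1.23 ± 0.01. In the poly(A) list 4 of 10 had a value and PABPC1 was the 1 detected. PABPN1, the nuclear poly(A)-binding protein gene, followed at 1.92 ± 0.02, then PAIP2, an inhibitor of PABPC1, at 1.23 ± 0.01 and PABPC4L at -0.24 ± 0.00.

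The list of eIF1, eIF2, eIF5 and eIF6 genes had a median of 4.13, the highest of the 7 by deposited value, with 14 of 22 genes valued and 8 detected. Per kilobase its median was 1.60, below the 2.74 of the elongation list. EIF2AK1, the haem-regulated kinase of eIF2, stood at 8.13 ± 0.26, EIF5B, which joins the ribosomal subunits, at 7.16 ± 0.08, and the exchange factor subunits EIF2B1 and EIF2B4 at 6.06 ± 0.05 and 5.89 ± 0.19. EIF1, a factor of start codon choice, was lowest at -0.24 ± 0.00, below the eIF2 subunit EIF2S3 at 0.23 ± 0.01. Of the eIF3 subunits 12 of 14 had a value and 5 were detected, with a median of 2.96. EIF3H at 6.44 ± 0.03, EIF3I at 6.21 ± 0.03, EIF3J at 6.18 ± 0.09 and EIF3L at 5.80 ± 0.06 led, while EIF3C and EIF3D were at -0.24 ± 0.00, although all are parts of 1 complex. The termination and mitochondrial list had 13 of 15 with a value, 5 detected and a median of 2.46, led by the mitochondrial factors MTIF3 at 7.26 ± 0.02 and MRRF at 6.65 ± 0.08, MTRF1L at 5.72 ± 0.10 and GFM2 at 4.76 ± 0.16. The cytosolic release factor genes ETF1 and GSPT2 and the mitochondrial elongation factor gene TUFM were lowest, each at -0.24 ± 0.00. In the list of mTORC1 and TOP message control 16 of 17 had a value and 6 were detected, with a median of 3.03. TSC2, an inhibitor of mTORC1, stood at 7.34 ± 0.11, LARP1, which binds TOP messages, at 4.57 ± 0.09, MTOR at 4.34 ± 0.10 and TIAL1, an RNA-binding protein gene, at 4.11 ± 0.06. RHEB, the activator of mTORC1, and DEPTOR, an inhibitor, were lowest at 0.23 ± 0.01.

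**Figure D4:**
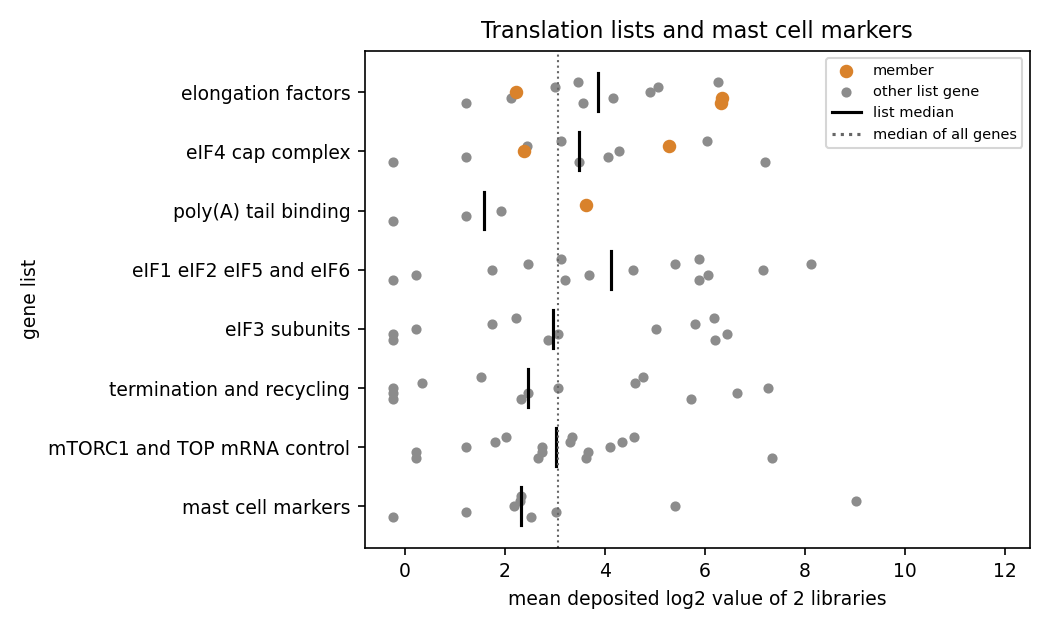
Mean deposited log2 value (horizontal axis) of the genes with a value in 7 translation lists and the mast cell marker list, with members in orange, list medians as black bars and the median of all genes dotted. List medians lie between 1.57 for poly(A) tail binding and 4.13 for the eIF1, eIF2, eIF5 and eIF6 list, and each list spreads over several log2 units.

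The TPT1 and EIF4B arrangement was set beside the rest of the translation genes. Of the 114 list genes, 58 overlap exons of a gene on the other strand. Both genes had a value in 41 pairs, only the partner in 9, only the list gene in 5 and neither in 3. The partner was higher per kilobase in both libraries in 31 of the 41 pairs, which is 75.6%, beside 67.2% of 3082 protein-coding genes in such pairs. The median gap was 3.69 log2 units per kilobase, beside 2.39. The gap of 7.19 at EIF4B was exceeded by 7 of these list genes, which had low levels themselves, among them DPH1 at 12.09 ± 0.32 and RPS6KB2 at 11.72 ± 0.35. The gap of 15.03 at TPT1, which is in no list, was above all 41. Genes with a higher partner included EEF1D, whose partner ENSG00000279605 shares 2934 exonic bases and stood 6.22 ± 0.32 above it, and EIF5A, whose partner GPS2 stood 6.34 ± 0.32 above it. The other direction was seen in 10 pairs, among them EEF1B2, EIF5B with REV1 at -1.57 ± 0.18 and EIF3L with ANKRD54 at -5.63 ± 0.07. In PABPC4 and EIF4A2, paralogs of members, only the antisense gene had a value: PABPC4-AS1 had 9.18 in replicate 1 and 9.57 in replicate 2, and ENSG00000263826, opposite EIF4A2, had 8.77 and 9.23.

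**Figure D5:**
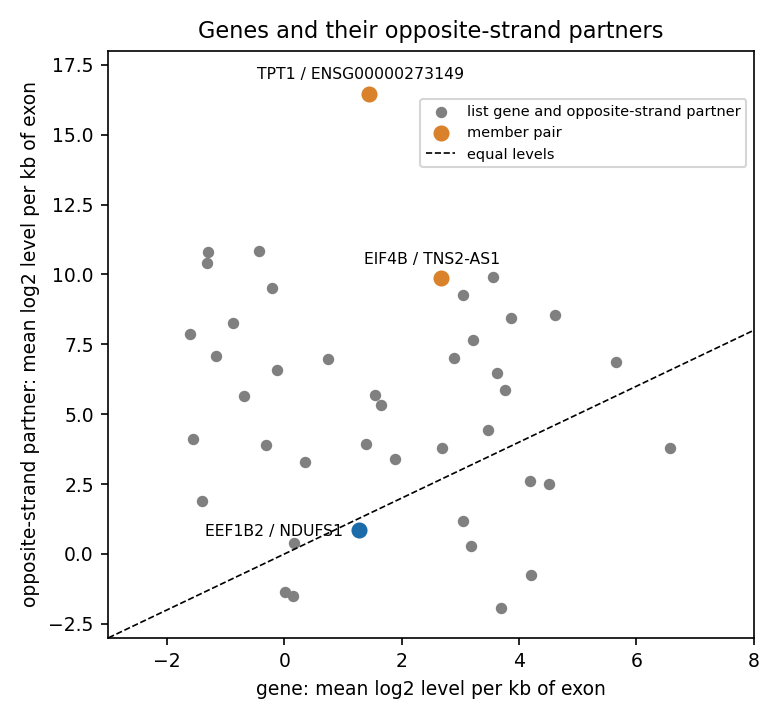
Mean log2 level per kilobase of exon of each gene (horizontal axis) and of its opposite-strand partner (vertical axis) for the 41 translation list pairs (grey, with EIF4B in orange and EEF1B2 in blue) and for TPT1 with ENSG00000273149 (orange), with equal levels dashed. TPT1 and ENSG00000273149 lie farthest above the line at a gap of 15.03, EIF4B and TNS2-AS1 at 7.19, and EEF1B2 with NDUFS1 just below it.

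By likeness over the 2 library values, measured as the Euclidean distance on the log2 scale, the 3 genes nearest to ENSG00000273149 were ENSG00000269968 at a distance of 0.268, BEST1 at 0.517 and MRNIP at 0.565. They share 422, 1267 and 1582 exonic bases with GAPDH, FTH1 and SQSTM1 on the other strand. The 3 nearest to TNS2-AS1 were RUSC1-AS1 at 0.0761, ENSG00000274425 at 0.165 and ENSG00000269292 at 0.290, which lie opposite FDPS, ICAM3 and CALM3. Those opposite genes had mean log2 values of 0.23, 7.65 and 3.30. All 6 nearest genes overlap exons on the other strand, as both members do, and 4 of them are annotated as antisense genes. Such an overlap was present in 49.9% of the 13733 genes with an exon model and in 36 of the 37 with a mean above 12, a level chosen after the values were seen. With 2 libraries of 1 group, the measure says little beyond a similar level.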

How the data were processed

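RNA of extracellular vesicles was sequenced in 2 libraries. Per the submitters' processing notes the tools were FastQC 0.11.5 and STAR 2.6.1a with the build hg38. The sources used here name no counter, strand setting, annotation or transform. Per the labels' protocols a Qiagen micro kit and an NEB NextUltra library kit were used. The authors deposited log2 values, 1 per gene and library, of which 1029 in each library were below 0, and these were treated as normalized values. Count models could not be used, and no p-value was computed. Error is the SD of the deposited values of 2 libraries, and the error of the counts could not be had. Spread at like level is the SD of the difference over the 500 nearest genes divided by the square root of 2. Steps were read from value pairs shared by many genes, without the very lowest values. Symbols matched 11066 of 14467 identifiers and GENCODE 29 models on GRCh38 matched 13733. Partners share at least 1 exonic base on the opposite strand, and the longest overlap was used. Exonic length is the union of all annotated exons.

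The members and lists were chosen with earlier results of these data known. Genes named were the members, their opposite-strand genes, the 3 highest pseudogenes, up to 4 highest and 2 lowest genes of each list, valued genes within 100 kb of TPT1 and EIF4B, and the 3 nearest genes in level. The examples of pairs, KIT and list genes named as having no row were chosen after their values were seen. Scripts used Python 3.11.15, numpy 2.4.6, pandas 2.3.3 and matplotlib 3.10.9 and were tested on simulated data. Alternatives covered replicates left out, median centring, pseudocounts of 1 and 5, thresholds, length scaling and overlap.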

Additional observations from a re-analysis of the deposited data

How the results depend on the processing

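The median level of the 9 members was 5.29 and rose to 5.46 with log2(linear value + 5). Leaving out a replicate gave 5.19 to 5.38. The gap at TPT1 was 15.03 per kilobase and 11.40 without division by length, and without a replicate it lay between 14.75 and 15.31. Divided by exonic length not shared with the opposite gene it could not be given, since ENSG00000273149 has no such base. The gap at EIF4B was 7.19, lay between 6.97 and 7.41 without a replicate, and was 6.85 with exons of the basic transcript set, an alternative chosen after seeing the data, as were the other length scales for the order of the members. Both gaps kept their direction under every alternative run. The count of detected members was 7, 8 at a linear value of 5, 5 at 20 and 4 at 50, beside 62.9%, 31.4% and 20.1% of all genes. Members past a fold threshold between the libraries numbered 0 at 2-fold and 1 at 1.5-fold. The median of the translation lists was 3.26, 3.23 to 3.25 without a replicate, 5.29 for detected members only and 0.74 per kilobase. Higher partners numbered 31 of 41, 28 of 37 with at least 100 shared bases and 29 of 41 without division by length. The share held by the members was 3.30%, and 2.74% to 3.86% without a replicate. The level of a single member moved by more than its SD in 0 of 9 under median centring, 4 of 9 with log2(linear value + 1) and 7 of 9 with log2(linear value + 5). Median centring moved the difference between libraries by more than the spread of like-level genes in 2 of 9. All 7 list medians moved per kilobase, which changes the unit, and with detected genes only, which drops the low genes. Neither move says anything about how stable the medians are. No paired analysis was possible because both libraries belong to 1 group. Values of EEF1B2 and EIF4A1 rest on few steps, which limits what their small SD can show.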

Other observations

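Within 100 kb of TPT1, 6 of 12 annotated genes had a value: besides TPT1, ENSG00000273149 and TPT1-AS1 these were SLC25A30-AS1 at 6.47 ± 0.00, RCN1P2, a pseudogene, at 5.59 ± 0.03 and the non-coding ENSG00000228886 at 2.55 ± 0.03. SLC25A30, a mitochondrial carrier gene opposite SLC25A30-AS1, had no row. Within 100 kb of EIF4B, 5 of 13 genes had a value, and besides EIF4B, TNS2-AS1 and TNS2 these were SPRYD3 at 3.80 ± 0.08 and the keratin gene KRT8 at 3.01 ± 0.05, while its partner keratin KRT18 had no row.

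Of 115 genes named after a member and numbered as its pseudogenes, 8 had a value (6.96%) and 4 were detected (3.48%), beside 7.79% and 2.21% of all 15224 annotated pseudogenes. EEF1A1 has 49 of them, of which 3 had a value: EEF1A1P32 at 5.18 ± 0.06 and EEF1A1P50 at 3.98 ± 0.09 were detected and the third was not. EEF1B2P1 stood at 4.43 ± 0.13 and EEF1B2 itself at 2.22 ± 0.03. The 5 lower pseudogenes ranged from 1.34 to 3.53. None of the 13 pseudogenes of EIF4A1 had a value. Reads shared by a gene and a near-identical copy could have been split or dropped by the counting, so the values of TPT1, EEF1A1, EEF1B2, EIF4A1, EIF4B and PABPC1 are uncertain in this respect.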
